A study of Citrullus lanatus with 6 samples.

Results

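The 150 genes described here were chosen by their normalized counts in the control leaves, because they were low in 1 of 3 well-watered watermelon plants, control replicate 2, while control replicates 1 and 3 had them high. The choice was made among the 12258 genes of the Charleston Gray genome annotation that had a mean count of at least 100 over the 6 libraries, leaving out ClCG05G025240 and the 100 genes with the highest mean FPKM in control leaves, out of 19742 genes and gene models in the table. For each gene the log2 ratio of the mean of control replicates 1 and 3 to control replicate 2 was taken on normalized counts with a pseudocount of 10, and the 150 highest ratios were kept. These ratios ran from 3.02 to 6.27 with a median of 3.65, against a median of -0.06 for all 12258 genes. They describe the choice and test nothing, and the low state is a single plant without a replicate. At the cutoff, the last genes inside were ClCG04G000090 and ClCG05G024190, both at 3.02, and the first genes outside were ClCG06G005820 at 3.02 and ClCG06G007180 at 3.01. The question asked of these genes is where the drought-stressed plants lay against each of the control states.

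RNA came from leaves of the cultivar Crimson Sweet at 8 days after the start of drought stress, when the plants were 89 days old, from 3 control plants and 3 drought-stressed plants with 1 library per plant. Control pots were held at 95 ± 5% of their relative water content and drought pots at 35 ± 5%, the only difference that the labels give between the groups. All plants share cultivar and age. The labels put the start of stress at 28 days after transplanting, where the study's methods give another day.

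Total counts ran from 17907062, in control replicate 2, to 22351455. A normalized count is a count divided by the library's size factor, which was 0.842 to 1.19, and its median over the 12258 genes was 541 to 572 in the control libraries and 522 to 531 in the drought libraries. In bulk leaf RNA, fewer cells of a type and less RNA per cell cannot be told apart. The leaf label was checked with 11 described genes of the photosynthetic mesophyll (chlorophyll a-b binding proteins, photosystem subunits and the carbon-fixing enzyme), which were abundant in every library. Their summed FPKM in order of replicate was 50452, 13679 and 34590 in controls and 9754 to 13266 under drought, so control replicate 2 stood near the drought libraries in this sum. Most described genes are ones that the study called changed by drought, so these sums are not free of selection. Of these 11 genes 2 were at 0 in some library, and none is among the 150 genes, only 2 of them having been open to the choice. For a list of 9 genes of chlorophyll synthesis and carbon fixation the sum went the other way under drought. Their summed FPKM was 946, 618 and 969 in controls and 1153 to 1596 under drought. Gene by gene, 2 of the 9 fell and 1 rose in the edgeR test described below, with a median log2 fold change of -1.33. The sum over 14 genes of the leaf surface (wax and lipid transfer) was 2625 to 4968 FPKM in controls and 4174 to 8942 under drought, and over 22 genes of dividing cells (histones, cyclins, kinesins) 389 to 532 and 425 to 466, with 1 gene of each list at 0 in some library. A sum is weighted to the abundant genes, and most surface genes went the other way. Of the 14, 8 fell and 1 rose in the edgeR test described below, with a median log2 fold change of -2.60. Of 21 tested genes of dividing cells 6 fell and 3 rose. The sole described phloem gene had 116 to 181 FPKM in controls and 40.3 to 67.5 under drought. The part of cell composition in the results below was not tested.

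A leaf cell grows when its wall yields to the pressure inside. Expansins loosen the wall, xyloglucan endotransglucosylase/hydrolases cut and rejoin the xyloglucan chains that tie cellulose fibrils together, and pectate lyases and endoglucanases trim the matrix around them. Extensins, arabinogalactan proteins and fasciclin-like proteins are built into the wall or its surface, and aquaporins let water follow into the growing cell. Genes of these families are best known from expanding tissue, and in many plants they fall in leaves short of water, where growth slows before photosynthesis does.

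The name given to the set, low in control plant 2 only, held among the controls but not over the 6 libraries. Control replicate 2 was the lowest control for 148 of the 150 genes, which the choice fixes (37.7% of all 12258 genes). Yet it was the lowest of all 6 libraries for 79 genes, shared the lowest place for 1 and was not the lowest for 70, where at least 1 drought library or another control was lower. The 150 genes held 1.74%, 0.207% and 1.64% of all counts in the 3 controls, taken in order of replicate number, and 0.641%, 0.428% and 0.594% in the 3 drought libraries. Their median normalized count was 855, 50.4 and 754 in the controls and 164, 51.5 and 117 under drought. Drought replicate 2 thus had the level of control replicate 2, and the other drought libraries lay between it and control replicates 1 and 3. For 2 of the genes control replicate 3 was below control replicate 2, so the choice rested on control replicate 1 alone. ClCG01G019950 had 690.2, 17.3 and 4.75 normalized counts in the controls by number, and ClCG01G022570 had 1128, 35.6 and 11.9. In reverse, ClCG02G015430 had 39.3, 34.6 and 1019.6, so the first control was low and the choice rested on control replicate 3. Control replicates 1 and 3 were within 2-fold of each other for 121 genes, and for the rest the ratio leaned more on 1 of them.

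**Figure D1:**
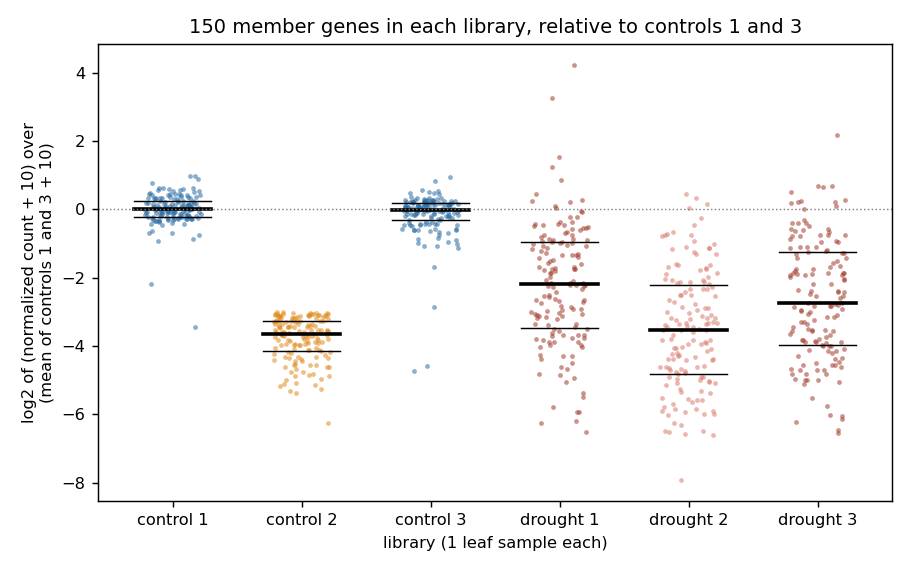
Each point is 1 of the 150 genes in 1 library, as the log2 ratio of its normalized count to the mean of control replicates 1 and 3 (pseudocount 10), with the thick bar at the median and the thin bars at the quartiles. From left to right the medians are 0.01, -3.65 and -0.01 for the controls and -2.19, -3.54 and -2.76 for the drought libraries, so drought replicate 2 lies nearest to control replicate 2.

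Under drought most of these genes were below the level of control replicates 1 and 3, and more of them were above control replicate 2 than below it. In normalized counts, all 3 drought libraries were below both control replicates 1 and 3 for 125 of the 150 genes (29.4% of all 12258 genes). All 3 were above control replicate 2 for 79 (40.9%) and below it for 24 (41.5%). The median log2 ratio of the drought mean to control replicates 1 and 3 was -2.67, with quartiles at -3.93 and -1.33, and over all 12258 genes it was 0.03. The drought mean was below a level 2-fold under controls 1 and 3 for 123 genes, within 2-fold of them for 25 and above them for 6. Against control replicate 2 the median log2 ratio was 1.18, with quartiles at 0.07 and 2.30, and over all 12258 genes 0.01. The drought mean lay above control replicate 2 for 115 genes and at least 2-fold above it for 83. It was within 2-fold of control replicate 2 for 58 genes and at least 2-fold below it for 9. Genes picked for being high in control replicates 1 and 3 and low in control replicate 2 tend to lie between them in any further library, so these positions are given as a description.

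The genes split by where drought lay. For 57 genes, or 38%, every drought library was between the control states, above control replicate 2 and below controls 1 and 3 (5.19% of all 12258 genes). For 45, or 30%, the drought libraries were below controls 1 and 3 and on both sides of control replicate 2 (4.65%). For 23, or 15.3%, they were below all 3 controls (19.5%), a share no larger than the background. Drought overlapped controls 1 and 3 for 24 genes (39.3%) and was above them for 1 (31.3%).

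**Figure D2:**
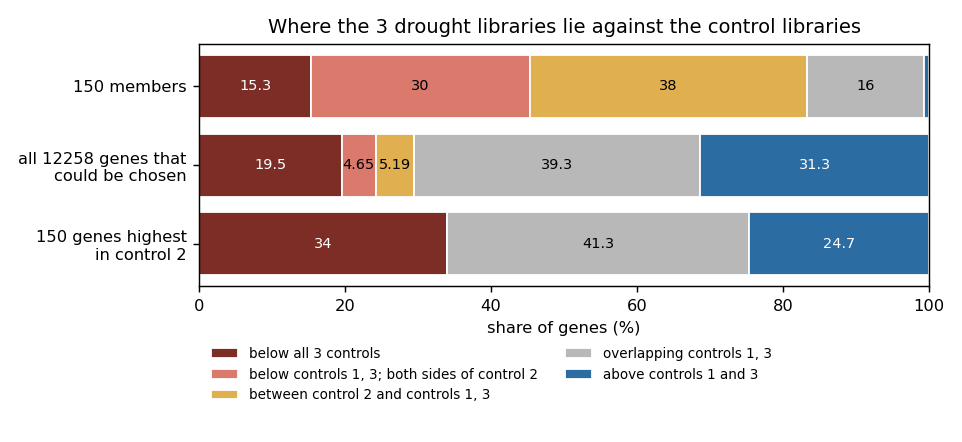
Bars give the percent of genes in which the 3 drought libraries lay below all controls, below controls 1 and 3 on both sides of control 2, between the control states, overlapping controls 1 and 3, or above them. The 150 genes have 38% between the states, all 12258 genes 5.19%, and the 150 genes that were highest in control 2 relative to controls 1 and 3 have none there, which their choice fixes.

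**Figure D3:**
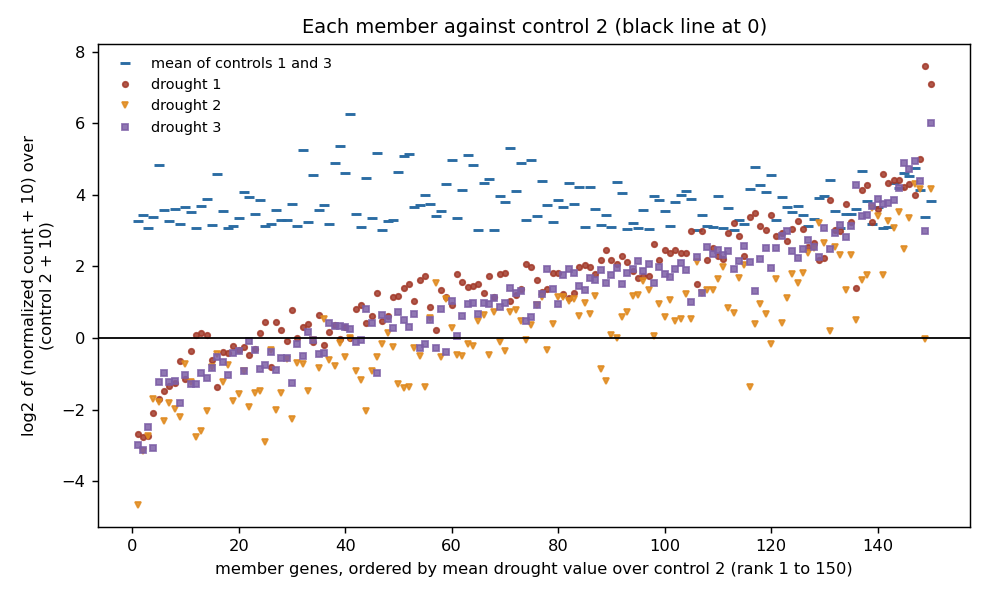
The 150 genes are ordered along the x axis by drought mean over control replicate 2, and the y axis gives the log2 ratio of each library to control replicate 2 (pseudocount 10), with blue bars for the mean of controls 1 and 3. Drought means run from -3.21 to 6.19, with 115 of the 150 above the line of control replicate 2.

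Descriptions were at hand for 68 of the 150 genes (45.3%, against 21.5% of all 12258), and they come from lists of genes that the study called changed by drought on these same libraries, 67 of them from the list of lower genes and 1 from the list of higher genes. The described genes are therefore the ones low under drought by selection. For 67 of them all drought libraries were below controls 1 and 3, with a median log2 ratio of -3.81, and the median against control replicate 2 was -0.01, so in the middle they lay level with it. The 82 undescribed genes stood higher under drought, with medians of -1.51 against controls 1 and 3 and 2.13 against control replicate 2, and 67 of them were above control replicate 2 in all drought libraries, against 12 of the described. Among the 68 described genes the drought libraries were all below control replicate 2 for 23. For 33 they were below controls 1 and 3 and on both sides of control replicate 2. The positions given for each group below are to be read beside these shares. The gene groups below are thus groups among the described genes. Of 3743 described genes in the table, 1476 came from the list of higher genes and 1976 from the list of lower genes. Falls and rises counted over a whole list below are therefore frequent by selection. They stand against 8.08% lower and 5.31% higher among all 16318 genes tested, and are not read as the response of a family.

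The list of xyloglucan enzymes and expansins, which loosen the wall, held 3 of the 150 genes, at ranks 3, 25 and 53 of the control ratio that chose them. Expansin A1 (ClCG03G001450, chr3:1443429-1445616, plus strand) had normalized counts of 1682, 15.3 and 299 in the 3 controls and 42.0, 31.8 and 57.0 in the 3 drought libraries, in order of replicate number here and for the genes that follow. The drought libraries were all above control replicate 2 and all below the other controls. A second expansin gene (ClCG09G018120, chr9:35114858-35115913, plus strand) had 1109, 49.9 and 696 in controls and 33.3, 5.87 and 46.5 under drought, and here every drought library was below control replicate 2. The xyloglucan endotransglucosylase/hydrolase gene ClCG10G008300 (chr10:16774926-16779025, plus strand) had 4515, 208 and 5017 in controls and 281, 42.7 and 368 under drought, with drought replicate 2 alone below control replicate 2. Across the 6 libraries the second expansin fell under drought, with log2 fold change -4.42 (SE 1.17 and adjusted p = 0.0497 from edgeR's quasi-likelihood test), whereas expansin A1 had -3.91 (SE 1.35, adjusted p = 0.0981) and ClCG10G008300 had -3.79 (SE 1.21, adjusted p = 0.0805, and 0.00552 with the replicate number as a block). Each fall of a single gene given here and below was lost when any 1 of the drought libraries was left out, as described with the counts of calls. Of 19 tested genes in the list of xyloglucan enzymes and expansins, 10 fell and 3 rose in that fit, with 0 to 16 falls and 1 to 4 rises when 1 library was left out, the most without control replicate 2 as in all lists of this kind below. Its 10 genes open to the choice had a median log2 ratio of controls 1 and 3 to control 2 of 2.37. Over all 12258 genes it was -0.06, and since this ratio chose the genes it tests nothing here or for the lists below. In the lists outside the wall that also held genes of the set, marker lists aside, its median ran from -0.29 (defence) to 0.24 (lipids).

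The list of cellulose and pectin genes held 10 of the 150. Drought libraries were all below controls 1 and 3 for 9 of them and lay on both sides of control replicate 2 for 7. An endoglucanase gene (ClCG09G011260, chr9:11169219-11172742, plus strand), of an enzyme family that cuts glucan chains, had 697, 12.2 and 985 normalized counts in controls and 17.5, 3.35 and 5.70 under drought, and it fell with log2 fold change -5.95 (SE 1.48 and adjusted p = 0.0417 from edgeR). A gene named cellulose synthase-like A1 (ClCG04G009730, chr4:24697782-24703935, plus strand), of a family that makes wall polysaccharides, had 838, 15.3 and 951 in controls and 50.8, 7.54 and 2.85 under drought. Its drought libraries fell on both sides of control replicate 2, and it did not pass (log2 fold change -4.85, SE 1.53, adjusted p = 0.0792 from edgeR). A beta-galactosidase gene (ClCG05G018680), of enzymes that remove galactose from wall polymers, had 1120.0, 34.6 and 534 in controls and 166, 58.7 and 112 under drought, every drought library being between the control states. The pectate lyase gene ClCG05G003590, the 1 other gene of this group that fell, had 1600.3, 136 and 1763 in controls and 104, 51.9 and 50.3 under drought (log2 fold change -4.06, SE 0.91, adjusted p = 0.0317 from edgeR). The rest were a second endoglucanase, a second pectate lyase, a second beta-galactosidase, 2 cellulose synthase-like genes, and a pectin methylesterase inhibitor that is described with the genes high under drought. Of 63 tested genes of the whole list 29 fell and 6 rose (4 to 55 and 1 to 7 with 1 library left out, and 44 and 4 with the block), and 54 genes open to the choice had a median log2 ratio of controls 1 and 3 to control 2 of 1.6.

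The 8 structural wall proteins were all below controls 1 and 3 in every drought library, as were 67 of the 68 described genes. Of the 8, 3 were below control replicate 2 as well, as were 23 of the 68. Extensin proline-rich 1 (ClCG01G017230, chr1:31790711-31792429, minus strand), a rod-like wall protein, had 6712, 538 and 3846 normalized counts in controls and 76.2, 11.7 and 59.8 under drought. Every drought library was thus far below the low control, and the gene fell with log2 fold change -6.21 (SE 1.12 and adjusted p = 0.0174 from edgeR). An arabinogalactan protein gene (ClCG05G001090, chr5:1199208-1199961, minus strand), for a sugar-coated protein of the cell surface, had 1622, 57.0 and 2302 in controls and 77.0, 29.3 and 74.1 under drought, at the level of control replicate 2 (log2 fold change -4.44, SE 1.18, adjusted p = 0.0497 from edgeR). Of the same families, arabinogalactan protein 22 and fasciclin-like arabinogalactan protein 16, also fell. A proline-rich protein gene (ClCG02G011360) had 373, 2.04 and 316 in controls and 21.0, 6.70 and 19.9 under drought, all above control replicate 2. A proline-rich extensin-like gene (ClCG00G004470) had 345, 6.11 and 337, and then 43.8, 1.68 and 20.9. Neither passed the test (adjusted p = 0.109 and 0.156 from edgeR), the second doing so with the block (0.0111). In the whole list 34 of 69 tested genes fell and 16 rose (5 to 44 and 6 to 18 with 1 library left out). Its 52 genes open to the choice had a median log2 ratio of controls 1 and 3 to control 2 of 0.23, against -0.06 for all 12258 genes.

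TRICHOME BIREFRINGENCE-LIKE 38 (ClCG01G023660, chr1:36943467-36946005, minus strand), of a family that in Arabidopsis attaches acetyl groups to wall polysaccharides, had 1682, 50.9 and 1741 normalized counts in controls and 8.75, 7.54 and 16.1 under drought. It was below control replicate 2 in all drought libraries and fell with log2 fold change -6.72 (SE 1.30 and adjusted p = 0.0221 from edgeR). Its neighbour at a gap of 5908 bases, a formin gene (ClCG01G023640) of proteins that build actin filaments, had 2655, 132 and 1027 in controls and 146, 13.4 and 61.7 under drought, and missed the threshold (adjusted p = 0.0647 from edgeR, and 0.00154 with the block). The aquaporin gene ClCG04G009480 (chr4:24297743-24299336, minus strand), for a water channel, was among the most abundant of the 150. It had 32709, 3507 and 39217 in controls and 2785, 1179.7 and 2706 under drought, all below control replicate 2, and fell with log2 fold change -3.48 (SE 0.88 and adjusted p = 0.0436 from edgeR). It would not have been chosen had the 100 most abundant genes been ranked among annotated genes alone, a change that keeps the other 149. The glutamate-gated channel gene ClCG01G024570 was the second in the list of transporters, with 961, 12.2 and 291 in controls and 50.8, 9.22 and 34.2 under drought. It missed the threshold (adjusted p = 0.107 from edgeR, and 0.0429 with the block).

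**Figure D4:**
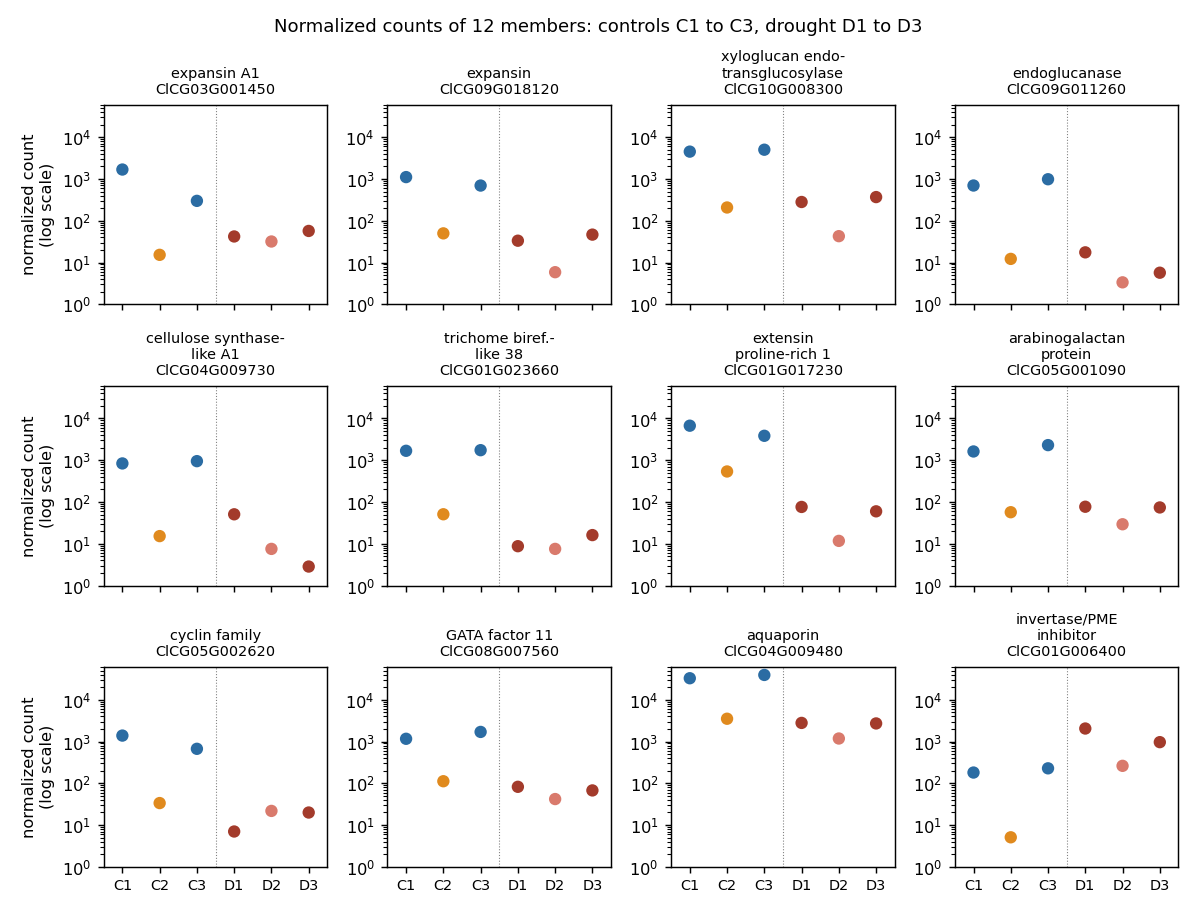
Normalized counts (log axis) of 12 of the genes in control libraries C1 to C3 and drought libraries D1 to D3. In the first 11 panels C1 and C3 stand above C2 and the drought libraries, with extensin proline-rich 1 at 11.7 to 76.2 under drought against 538 in C2, and in the last the inhibitor stands at 261 to 2046 under drought against 5.09 in C2.

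Of the lipid and surface genes, 4 were in the set, and for all 4 the drought libraries were below controls 1 and 3 and on both sides of control replicate 2. A GDSL esterase/lipase gene (ClCG07G013470) had 2056, 153 and 3084 normalized counts in controls and 536, 53.6 and 134 under drought. A 3-ketoacyl-CoA synthase gene (ClCG05G004720), of the enzymes that lengthen fatty acids for surface waxes, was an exception to the order of the drought libraries. It had 1558, 134 and 1486 in controls and 158, 412 and 108 under drought, so drought replicate 2 was its highest. None of the 4 passed the test (edgeR, adjusted p = 0.143 to 0.15), though with the block the GDSL gene did (adjusted p = 0.0368 from edgeR), as did the lipid-transfer gene ClCG03G014210 (0.0314). In the whole list 25 of 61 tested genes fell and 13 rose (6 to 33 and 2 to 18 with 1 library left out).

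Transcription factors gave 7 genes, with 4 below control replicate 2 in every drought library and 4 that fell by the test. GATA transcription factor 11 (ClCG08G007560), of a zinc finger family that binds GATA sequences, had 1162, 112 and 1695 normalized counts in controls and 82.3, 41.9 and 67.4 under drought (log2 fold change -3.93, SE 0.91, adjusted p = 0.034 from edgeR). A Myb gene (ClCG02G004920, chr2:5202369-5204201, minus strand) had 658, 32.6 and 364 in controls and 7.88, 0.838 and 8.55 under drought (log2 fold change -5.90, SE 1.23, adjusted p = 0.0259 from edgeR). At a gap of 53779 bases lies a gene described as RADIALIS (ClCG02G004950), named after a Myb-like factor that shapes snapdragon flowers, with 334, 56.0 and 751 in controls and 0, 0 and 1.90 under drought, the last being 2 counts. It fell as well (adjusted p = 0.0111 from edgeR), and with so few counts no fold is given. A C2H2 zinc finger gene (ClCG05G014890) went the other way relative to control replicate 2, with 474, 6.11 and 527 in controls and 53.4, 10.9 and 14.2 under drought. Over the whole list, 96 of 237 tested genes fell and 50 rose (15 to 130 and 9 to 68 with 1 library left out).

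A gene described as TFIID subunit A (ClCG09G000950), a part of the general transcription machinery, had drought values that nearly matched the low control. It had 24503, 929 and 19759 normalized counts in controls and 854, 892 and 895 under drought, so that control replicate 2 and all drought libraries were nearly level (log2 fold change -4.08, SE 1.04, adjusted p = 0.0445 from edgeR, and 0.0947 with the block). A cyclin family gene (ClCG05G002620), of proteins that drive or pair with kinases of the cell cycle, had 1386, 33.6 and 668 in controls and 7.0, 21.8 and 19.9 under drought, all below control replicate 2, and fell at -5.39 (SE 1.25, adjusted p = 0.0347 from edgeR, and 0.0703 with the block). It was the sole gene of the cell division list in the set, and 9 of 33 tested genes of that list fell and 6 rose (2 to 17 and 0 to 12 with 1 library left out, and 9 and 3 with the block).

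Receptor-like kinases and leucine-rich repeat proteins, many of which sense signals at the cell surface, gave 5 genes, all below controls 1 and 3 and on both sides of control replicate 2. A leucine-rich repeat gene (ClCG02G006180) had 1434, 89.5 and 1491 normalized counts in controls and 96.3, 14.2 and 36.1 under drought and fell (log2 fold change -4.34, SE 1.13, adjusted p = 0.0473 from edgeR). The gene ClCG10G012510 had 506, 4.07 and 444 in controls and 28.0, 2.51 and 17.1 under drought and missed the threshold (adjusted p = 0.097 from edgeR, and 0.016 with the block). In the whole list 45 of 89 tested genes fell and 5 rose (6 to 64 and 1 to 8 with 1 library left out). Peroxidase 47 (ClCG04G002760), of enzymes that cross-link wall polymers, had 845, 14.2 and 647 in controls and 35.9, 19.3 and 39.9 under drought. A glucan endo-1,3-beta-glucosidase-like gene (ClCG06G015690) had 752, 28.5 and 845, and then 84.0, 75.4 and 80.7. Both were above control replicate 2 in every drought library. A cytochrome P450 gene (ClCG01G002600) had 885, 20.4 and 301 in controls and 57.8, 54.5 and 13.3 under drought. No gene of the set was in the lists of photosystems, carbon fixation, growth hormones, stress hormones, calcium signalling, clock or heat shock proteins, which had 3 to 53 genes open to the choice. Of the 2640 described genes open to the choice 68 were in the set. Lists of these sizes would thus hold few or none at that share, and their absence is read no further.

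The other described genes were mixed in role. An ovate family gene (ClCG04G010330), of a family that in Arabidopsis affects organ shape, had 820.4, 26.5 and 941 normalized counts in controls and 35.0, 15.1 and 35.1 under drought. A cytokinin dehydrogenase gene (ClCG08G014700), for an enzyme that breaks down the growth hormone cytokinin, had 525, 25.4 and 146, and then 23.6, 13.4 and 14.2, all below control replicate 2. A laccase-like gene (ClCG08G013920), of enzymes that can polymerise lignin, had 486, 14.2 and 331, and then 45.5, 31.8 and 48.4, all above it. These 3 were thus spread over both sides of the low control. The first fell (log2 fold change -4.37, SE 1.15, adjusted p = 0.0493 from edgeR) and the others missed the threshold (adjusted p = 0.0546 and 0.121 from edgeR), the dehydrogenase doing so with the block (0.0412). A glycerol-phosphate acyltransferase gene (ClCG10G021950), for a step of membrane and surface lipid synthesis, had 4779, 287 and 3718 in controls and 316, 97.2 and 153 under drought and fell (log2 fold change -3.93, SE 0.99, adjusted p = 0.0437 from edgeR). The gene for a plastid division protein of the FtsZ type (ClCG10G019010) had 781, 80.4 and 674, and then 116, 70.4 and 131. It did not pass, with adjusted p = 0.0913 from edgeR.

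Relative to controls 1 and 3, the lowest gene under drought without a known role was ClCG11G016220 (described as unknown protein). It had 1539.7, 93.6 and 673 normalized counts in controls and 5.25, 1.68 and 1.90 under drought, the drought values coming from 6, 2 and 2 counts. It fell (log2 fold change -7.95, SE 1.21, adjusted p = 0.0108 from edgeR). The genes with the highest ratio among controls rest on few counts in the low libraries. ClCG05G011220 had 987, 0 and 350 counts in controls and 0, 0 and 2 under drought. ClCG00G004070 had 750, 1 and 44 counts, and then 1, 0 and 4. Both were too low to enter the test across 6 libraries, and their folds are not given. In control replicate 2, 75 of the 150 genes had under 50 normalized counts and 19 had under 10 counts, against 7, 26 and 10 genes with under 10 counts in the drought libraries in order.

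The 3 genes with the highest mean FPKM of the set were the aquaporin gene above, ClCG10G022080 and ClCG02G001140. ClCG10G022080 and ClCG02G001140 are undescribed and lay between the control states, as did the undescribed gene ClCG04G000090 from the cutoff. ClCG04G000090 had 74192, 11033 and 104973 normalized counts in controls and 24388, 18296 and 24082 under drought. ClCG10G022080 had 35653, 2708 and 29355, and then 8979.8, 8209 and 10001. ClCG02G001140 had 10677, 1077 and 7771, and then 4998, 4288 and 5425. In these 3 undescribed genes every drought library was above control replicate 2 and below both other controls, with no overlap. The abundant gene ClCG04G012170 did not share this, with 15532, 659 and 5185 in controls and 3166, 4194 and 5642 under drought, so that drought replicate 3 was above control replicate 3. Other undescribed genes had drought values that overlapped control replicates 1 and 3. ClCG09G008770 had 2209.7, 50.9 and 1064 in controls and 959, 1191 and 1881 under drought, and ClCG02G021620 had 2136, 191 and 1509, and then 1882, 2470.1 and 2588. For both, control replicate 2 alone was low.

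The 6 genes with a drought mean above controls 1 and 3 include 2 that stand out by size. The gene of a plant invertase/pectin methylesterase inhibitor (ClCG01G006400, chr1:7200879-7201511, minus strand), for a small protein of a family that blocks invertases or pectin-modifying enzymes, had 181, 5.09 and 228 normalized counts in controls and 2046, 261 and 965 under drought. It was the only gene of the 150 with every drought library above every control. It did not pass the test across 6 libraries (log2 fold change 3.01, SE 1.17, adjusted p = 0.129 from edgeR), and with the replicate number as a block it did (adjusted p = 0.0148 from edgeR), as did ClCG04G006370 (0.0228), with 2752, 253 and 1639 in controls and 6328, 883 and 3522 under drought. ClCG09G009340 had 162, 1.02 and 46.3 in controls and 2126, 0.838 and 76.9 under drought, so its mean rests on drought replicate 1, and drought replicate 2 was at the level of control replicate 2. ClCG01G021970 had 160.5, 6.11 and 98.5 in controls and 316, 146 and 208 under drought, overlapping control replicate 1.

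Across all 6 libraries, 27 of the 148 genes that could be tested fell under drought in edgeR at an adjusted p below 0.05 (8.08% of all 16318 genes tested) and none rose (5.31%). At an unadjusted p under 0.05 there were 69 lower and 1 higher. This fit contains the control values that chose the genes, so the share is given beside its background and read no further. Of the 27 genes, 22 were below every control library and 5 on both sides of control replicate 2, and no gene whose drought values lay between the control states was called. The median SE was 0.99. The count moved with each library left out. Without control replicate 2, 104 of 150 genes fell (14.8% of all genes tested) and none rose (11.3%), with a median SE of 0.53. The 104 include the 27. The only controls of that fit are replicates 1 and 3, in which the genes were chosen to be high, so this count too is read no further. Without control replicate 1 the number was 2 (2.43%) and without control replicate 3 it was 8 (8.5%). Without drought replicate 1, 2 or 3 edgeR called 0 each time (1.4%, 1.82% and 0.974%), with 60, 45 and 43 at an unadjusted p under 0.05. In these 5 fits none of the 150 genes rose either, with 1.41%, 5.16%, 1.13%, 1.2% and 0.891% of all genes tested. With the replicate number as a block 49 fell and 2 rose (9.22% and 5.08%), with 27 calls gained and 3 lost, and by DESeq2 67 fell and 1 rose (15.3% and 10%). The block was chosen on these same libraries without a label to ground it, so its p-values here and above are an alternative only.

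The drought plants differed among themselves in the same genes. Drought replicate 2 was the lowest of the 3 drought libraries for 128 of the 150 genes (34.4% of all 12258), and for 82 it was at least 2-fold below the mean of drought replicates 1 and 3 (3.47%). The median log2 ratio of drought replicates 1 and 3 to drought replicate 2 was 1.07, with quartiles at 0.47 and 1.76, it was above 0 for 139 genes, and over all 12258 genes it was -0.01. Where drought was above control replicate 2 in all libraries, drought replicate 2 was the lowest for 72 of 79 genes. Drought values entered the choice of the genes through the minimum mean count alone. The 150 genes at the other end of the choice, highest in control replicate 2 relative to controls 1 and 3, showed the reverse, with a median of -0.64 and drought replicate 2 the highest of the drought libraries for 108 of them. Across all 12258 genes, which are not independent replicates, the control ratio and the drought ratio had a Pearson's r of 0.487, and 0.448 with the 150 genes left out. The ratios come from separate libraries. With 1 plant on each side there is no replicate of this difference, and what the plants numbered 2 share is not given in the labels. The coefficient of variation over the drought libraries had a median of 56.7% for the 150 genes and 13.7% for all 12258. The xyloglucan gene at 42.7 against 281 and 368 and the extensin at 11.7 against 76.2 and 59.8 are examples, whereas TFIID subunit A and the glucosidase-like gene were level over the drought libraries. The described and undescribed genes had medians of 1.07 and 1.09, so the lower drought replicate 2 was found in both.

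**Figure D5:**
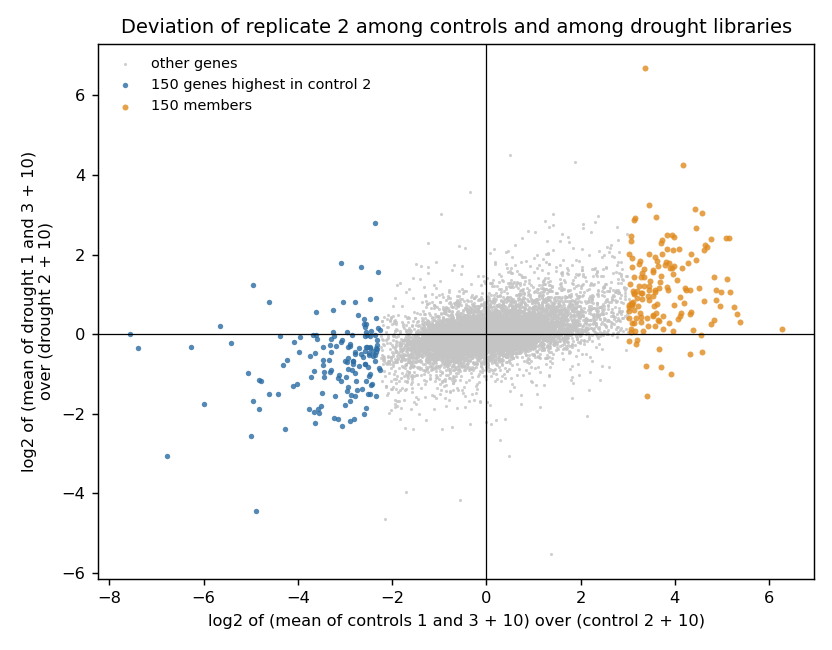
Each point is a gene, with the log2 ratio of control replicates 1 and 3 to control replicate 2 on the x axis and that of drought replicates 1 and 3 to drought replicate 2 on the y axis. The 150 genes, at 3.02 and above on x by choice, have a median of 1.07 on y, and the 150 genes at the other end have -0.64.

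The 150 genes were shorter than others and more often without introns. Their median exon length was 1326 bases against 1639.5 for all 12258 genes, and for 35, or 23.3%, the exon length equalled the genomic span, as in genes of a single exon (9.11% of all 12258). The 150 genes at the other end had a median of 1272 bases and 17.3% of this kind, so the genes at the other end had both features too. Chromosome 5 held 27 of the genes (18.0%, with 12.9% of all 12258) and chromosome 1 held 22 (14.7%, with 11.4%). Within 100 kb of another gene of the set lay 14 genes in 7 pairs, against 26 pairs at the other end of the choice. The closest were the formin and TRICHOME BIREFRINGENCE-LIKE 38 pair, described above, and ClCG07G000270 with ClCG07G000290 at a gap of 6132 bases. These undescribed neighbours had 13920.3, 1884 and 17066 normalized counts, and 2489, 194 and 2469, in the controls. Under drought they had 6264, 4757 and 7938, and 697, 452 and 618, so both were between the control states. Another gene of the table overlapped 3 of the 150, and reads of overlapping genes, or of close relatives such as the expansins, may be shared between them.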

How the data were processed

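For each gene model of the Charleston Gray build the authors deposited raw read counts, the same counts divided by 1 size factor per library (normalized counts, a signal without unit), FPKM values and gene lengths in bases. For the upstream steps the study's methods name TopHat, HTSeq and DESeq, and the submitters' processing notes name fastp, HISAT2 2.1.0, featureCounts and DESeq2. The kit was not stated to keep strand in the sources used here. The authors' own log2 fold changes and p-values in the deposited table were not used. Gene descriptions came from the study's supplementary lists of called genes, and for 291 genes from the deposited descriptions.

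Levels and positions were computed from the normalized counts, log2 ratios with a pseudocount of 10. Across genes the counts were tested with edgeR 4.0.16 (R 4.3.3) by the quasi-likelihood F-test, two-sided, with TMM scaling, filterByExpr (minimum count 10, minimum total 15), condition as the factor and Benjamini-Hochberg adjustment at 0.05. Each SE was obtained by dividing the absolute log2 fold change by the root of the F statistic. DESeq2 1.42.0, a replicate block, no filter, library totals and leaving out each library were alternatives. The scripts were tested on simulated data. Replicates are separate plants according to the study's methods, and no pair within a group was alike within sampling noise (smallest chi-square per degree of freedom 43.1). Correlations of deviations from the group means were 0.148, 0.430 and 0.130 for libraries with the same replicate number. Each was above 0.1, and for this reason a block by number was run as an alternative. Control replicate 3 with drought replicate 1 had 0.303, above 0.148 and 0.130, and the labels name no shared block. These values thus do not ground a pairing by number. The highest is that of the libraries numbered 2, and low values in control replicate 2 chose the genes.

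The text names, in part, the 5 genes with the highest control ratio, up to 3 of each description list by that ratio, the 3 highest and 3 lowest under drought, the genes at the cutoff and the 3 most abundant. All other genes named were chosen after their values were seen. The genes and lists were chosen with earlier results of these data known.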

Additional observations from a re-analysis of the deposited data

How the results depend on the processing

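The number of the 150 genes lower in drought was 27, and 28 without a filter and 27 with library totals, but 67 by DESeq2, 49 with the replicate block and 0 to 104 with 1 library left out (104 without control replicate 2). The number higher was 0, against 1 by DESeq2, 2 with the replicate block and 0 in every fit with 1 library left out. The median log2 ratio of drought to control replicates 1 and 3 was -2.67, and -1.95 when 300 genes were taken in place of 150, since these include genes with smaller control ratios, and it ran from -3.06 to -2.37 with 1 library left out. Against control replicate 2 it was 1.18 and ran from 0.93 to 1.44 in the same way. With 1 library left out, the share of genes with drought below controls 1 and 3 ran from 83.3% to 88.7%, the share above control replicate 2 from 52.7% to 70.7%, and the share below it from 16.7% to 26% (16.0% with all libraries, 26% without drought replicate 1). The ratio of drought replicates 1 and 3 to drought replicate 2 ran from 0.81 to 1.22. Some other alternatives took these shares below those ranges, the first to 75.3% with library totals, 78.7% with a pseudocount of 1 and 80.7% with 300 genes, the second to 51.3% with library totals and the last to 12% with a mean count of 30, and each stayed within 1.5 times its main value. With library totals the choice kept 147 of the 150 genes, and all 12258 genes shifted from a median of 0.03 to 0.36 in the ratio of drought to controls 1 and 3, while the chosen genes stood at -2.34. TMM scaling, a pseudocount of 1 and a mean count of 30 moved the 3 median ratios by less than 1 SD over the drought libraries. Depth limits the lowest genes, 26 of which had under 10 counts in drought replicate 2.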
